A study of Mus musculus with 2 samples.

Results

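MHC class II-high C1q macrophages were macrophages in the library from PyMT-M mammary tumour tissue. They carried the complement C1q transcripts together with a large amount of the transcripts for MHC class II molecules. The members were chosen by measured UMIs of 22 genes. They numbered 1052 cells, out of the 7476 cell barcodes in the PyMT-M library and the 12496 over both libraries. A member had at least 200 detected genes and at most 10% mitochondrial UMIs (unique molecular identifiers, one per captured transcript). Its summed C1qa, C1qb and C1qc UMIs reached at least 50 per 10000, and it had no UMI of Cd3d, Cd3e or Cd3g. It also had fewer than 3 UMIs of Mki67, Top2a, Birc5 and Cdk1, less than 15 per 10000 of Isg15, Ifit1, Ifit2, Ifit3, Rsad2 and Cmpk2, and less than 50 per 10000 of Ccl3 and Ccl4. The last condition was a sum of H2-Aa, H2-Ab1, H2-Eb1 and Cd74, called the class II sum here, of at least 500 per 10000. Of the 2827 C1q macrophages that met the other conditions, the remaining 1775 lay under this threshold and served as the class II-low cells.

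Tumour cells of the PyMT-M or PyMT-N line had been injected into the mouse mammary gland, and the tumours were taken about 4 weeks later at a diameter of 0.7 to 1 cm. Viable immune cells were sorted as positive for CD45 and negative for the dye DAPI, and their RNA was captured with a droplet kit that reads the 5′ ends of transcripts. Each line had 1 library, and no label gave a replicate, a treatment, a host strain or an age. The labels did not say what M and N stand for, or whether cells of several tumours were pooled. A difference between groups of cells or between the lines therefore had no replicate check, and no test was made. The intervals given are 95% intervals for counting error only (exact Poisson for a level, Clopper-Pearson for a share, exact conditional binomial for a ratio).

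MHC class II molecules are heterodimers that carry peptides from the endosome to the cell surface, where CD4 T cells read them. H2-Aa with H2-Ab1, and an H2-Ea chain with H2-Eb1, encode the heterodimers, and Cd74 encodes the invariant chain that guides them and plugs the groove until proteases such as cathepsin S remove it. H2-DM then exchanges the remaining fragment for a peptide and H2-O restrains H2-DM, while Ciita encodes the coactivator that switches these genes on together through the X and Y boxes of their promoters. Macrophages are among the cells that can make class II, and C1q is made by many tissue macrophages.

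Promoter stretches of class II genes are shown first, since these boxes are the letters that the genes measured here are known to share. The sequences are RefSeq promoters of the mouse build GRCm38.p6, written 5′ to 3′ on the gene's strand, with capitals for matches to the Y box core, TGATTGG, and the X box core, which is AAC and ATGATG with any 2 bases between them. The stretch for H2-Eb1, the class II beta chain used to mark the cells, lies at chr17:34305737-34305856 on the plus strand. The stretch for H2-Aa, an alpha chain, lies at chr17:34287834-34287953 on the minus strand, and that for H2-Ob, the beta chain of H2-O, at chr17:34238775-34238894 on the plus strand.
H2-Eb1: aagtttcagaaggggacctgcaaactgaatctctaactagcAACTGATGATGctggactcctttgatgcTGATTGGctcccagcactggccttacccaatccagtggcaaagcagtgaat
H2-Aa: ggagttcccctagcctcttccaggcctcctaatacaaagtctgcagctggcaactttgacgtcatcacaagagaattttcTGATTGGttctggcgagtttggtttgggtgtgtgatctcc
H2-Ob: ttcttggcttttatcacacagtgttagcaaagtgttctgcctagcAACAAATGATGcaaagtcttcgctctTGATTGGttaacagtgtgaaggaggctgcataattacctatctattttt

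The near-identical beta chain genes of H2-DM are shown by the stretches around each match, since their transcripts differed in level between the cell types described further on. The H2-DMb1 stretches lie at chr17:34153094-34153117 and chr17:34153120-34153142, and the H2-DMb2 stretches at chr17:34145123-34145146 and chr17:34145149-34145171, all on the plus strand.
H2-DMb1, X: ctagtAACTGATGATGctaggctg
H2-DMb1, Y: tcactcagTGATTGGtctgacct
H2-DMb2, X: ctattAACCGATGATGctaggcta
H2-DMb2, Y: tcacttagTGATTGGactgactt

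Both motifs were searched on both strands in the 250 bases before the start. TGATTGG was found in 7.23% of 32851 mouse promoters, the X core in 0.119%, and both in 0.0274%, which is 9 promoters. The X and Y matches did not overlap in the promoters printed above. Of 25 genes looked up (H2-Aa, H2-Ab1, H2-Eb1, the class II pathway list, H2-M2 and Il1b), 20 had an entry. The Y core was in 9 of them (H2-Eb1, H2-Aa, H2-Ob, H2-Oa, H2-DMb1, H2-DMb2, H2-Eb2, Rfx5 and Nfyc) and the X core in 4 (H2-Eb1, H2-DMb1, H2-DMb2 and H2-Ob). The first base of the Y match stood 61 bases before the start in H2-Eb1, 50 in H2-Aa, 59 in H2-Ob, 63 in H2-DMb1 and 92 in H2-DMb2. A match describes the letters only. H2-Ab1, Ciita, Rfxap, March1 and Cd83 had no entry.

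In the GRCm38 annotation the genes looked up for chains of class II, H2-DM and H2-O sit in one stretch of chromosome 17. H2-Oa lies there at 34092340-34095234, H2-DMa at 34119541-34139101, H2-Ab1 at 34257689-34269419 and H2-Eb1 at 34305867-34316674, whereas Ciita lies on chromosome 16 at 10480059-10528418. The PyMT-M library held 43977988 UMIs and the PyMT-N library 14907736. The filters on genes and mitochondrial UMIs took out 119 barcodes from the first and 26 from the second, and 60 barcodes occurred in both libraries, 14 of them among the members. No cell was removed as a doublet, because the automatic threshold of the doublet caller marked 0 cells in each library. Members held 518 to 21331 UMIs (median 4839), a median of 1761 genes and a median of 2.10% mitochondrial UMIs. Class II-low cells held 504 to 26219 UMIs (median 4401) and a median of 2.97% mitochondrial UMIs.

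As a check of the label, 9 of 10 macrophage markers in members reached 1 UMI per 10000, with a summed level of 377 per 10000 against 497 in class II-low cells. Markers of other cell types were low in members. The summed level of conventional dendritic cell markers was 2.49 per 10000 against 2.37 in class II-low cells, with Batf3 giving 1.55 of it. B cell markers summed to 3.03 against 2.16, of which Ighm gave 1.94. T cell markers summed to 0.183 in members against 0.407, with 5 of 10 at 0 (the rule barred 3 of them), and NK cell markers to 0.830 against 3.61. Epithelial markers summed to 0.866 in members and to 7.08 in class II-low cells, mostly Wfdc18 at 5.20. Monocyte markers summed to 3.98 and 5.41, plasmacytoid dendritic cell markers to 7.81 and 13.3 (mostly Bst2), mature dendritic cell markers to 12.1 and 13.98 (mostly Cd63), fibroblast markers to 0.234 and 0.342 and endothelial markers to 0.332 and 0.245. Class II-low cells thus held more RNA of NK and epithelial markers than members did, and the part of this RNA in the differences between the groups was not tested.

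Members made up 37.2% (35.4 to 39.0) of the 2827 C1q macrophages in PyMT-M. By the same rule PyMT-N held 74 such cells among 454, which is 16.3% (13.02 to 20.02). Of all cells that passed the filters, they were 14.3% (13.5 to 15.1) for PyMT-M and 1.48% (1.17 to 1.86) for PyMT-N. Shares of sorted CD45-positive cells above the lowest UMI counts kept in each library describe the sorted suspension and not the tumour. With every cell thinned to 2000 UMIs, the share was 40.8% (959 of 2352 cells) in PyMT-M and 18.2% (71 of 390) in PyMT-N.

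The class II sum was continuous across the threshold, so the members are the upper range of a distribution. It ran from 500 to 3333 per 10000 in members, with a median of 775 and quartiles of 635 and 981, and its median in class II-low cells was 129. In PyMT-M 198 cells (7.004%) lay between 450 and 550. The 112 cells just under the threshold carried 278 per 10000 of Cd74 and the 86 just above it 298. H2-Eb1 stood at 70.5 and 83.3 in these cells, H2-DMb1 at 8.31 and 10.9, and Il1b at 13.2 and 12.5. Ciita was at 0.425 and 0.745, Folr2 at 1.73 and 1.11, and Ccl8 at 2.24 and 1.04. Ciita, Folr2 and Ccl8 were thus more than 1.5-fold apart across the line, and the others less. Ciita rested on 26 and 35 UMIs and Folr2 on 106 and 52, and for both the counting intervals of the levels overlapped. Those of Ccl8, on 137 and 49 UMIs, did not. H2-M2, described further on, was at 0.751 just under the threshold and 0.553 just above it, on 46 and 26 UMIs.

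**Figure D1:**
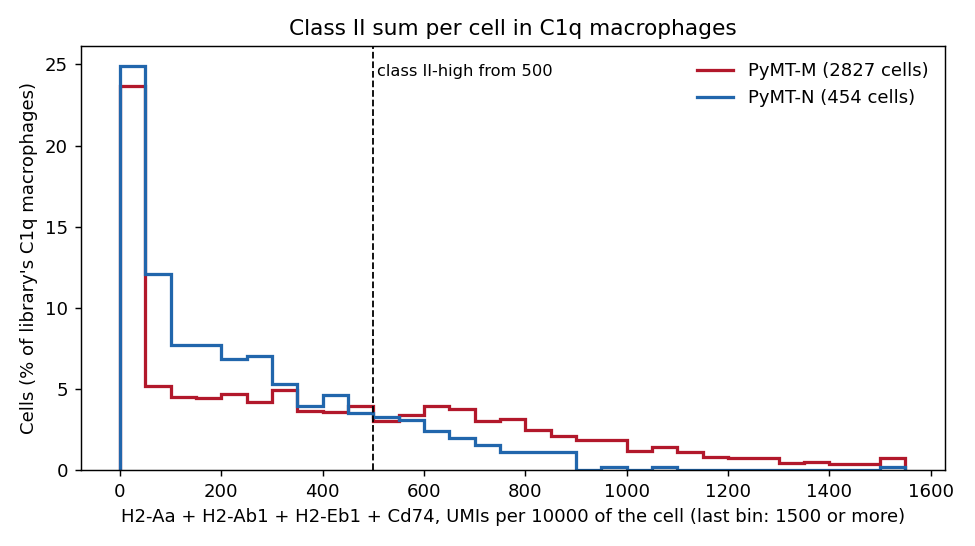
Percent of each library's C1q macrophages (vertical axis) by class II sum in UMIs per 10000 (horizontal axis). Only cells that met the other conditions are counted, 2827 in PyMT-M and 454 in PyMT-N. The dashed line is the threshold of 500, which has no gap in the distribution beside it.

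High class II was not limited to the members. Among the C1q macrophages left out by the other conditions, a class II sum of at least 500 was found in 17.1% of cycling cells (53 of 310), 46.4% of cells with high interferon-response transcripts (325 of 700) and 57.1% of cells rich in Ccl3 and Ccl4 (795 of 1392). In PyMT-M 1173 of the 2225 C1q macrophages with a sum of at least 500 (52.7%) were left out in this way, and in PyMT-N 15 of 89 (16.9%). The members are therefore the class II-high macrophages without these 3 signatures.

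The 4 class II genes that chose the cells had the following levels, given as a description. Cd74 was at 471 per 10000 in members (209 to 2455 in single cells, median 452) and at 112 in class II-low cells. H2-Aa was at 115 and 28.5, H2-Ab1 at 98.8 and 22.9, and H2-Eb1 at 125 and 27.7. In the same library 41 dendritic-type cells (Flt3 or Zbtb46 detected, C1q under 10 per 10000, class II sum at least 500) had 423 per 10000 of Cd74, 120 of H2-Aa, 79.4 of H2-Ab1 and 91.6 of H2-Eb1. The members' levels of these genes were thus of the size of those in dendritic-type cells, which a class II threshold had also chosen. In 48 B-type cells Cd74 was at 204 and H2-Eb1 at 33.8, and in 673 T-type cells, which should lack class II, Cd74 was at 1.48 and H2-Eb1 at 0.286. Median UMIs were 8746 in dendritic-type, 1860 in B-type and 4508 in T-type cells.

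Of 8334 genes with at least 100 UMIs over members and class II-low cells of PyMT-M, 285 (3.42%) were at least 1.5-fold higher in members and 593 (7.12%) at least 1.5-fold lower. The median log2 ratio of all of them was -0.03. Log2 ratios of members to class II-low cells were formed from summed UMIs per 10000 with 0.01 added, which understates the ratio of rare transcripts. The class II sum fills more of a member's total than of a class II-low cell's. With the genes of the rule taken out of the totals, 457 genes were higher and 470 lower, so the share of higher genes went from 32.5% to 49.3%. Since the class II sum chose the groups, these ratios describe them.

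Of 20 class II pathway genes outside the rule, 18 had enough UMIs. In members 6 of the 18 were at least 1.5-fold higher and none was lower, beside 3.42% higher among all genes, and the list's median log2 ratio was 0.36. Ciita, the coactivator of class II transcription, was at 0.752 per 10000 (414 UMIs) in members and at 0.206 (195 UMIs) in class II-low cells, a log2 ratio of 1.82 (1.62 to 2.12). The other transcription factors of the X and Y boxes differed less. Rfx5 had a log2 ratio of 0.43, Rfxap of 0.17, Rfxank of -0.20, Creb1 of 0.13, Nfya of -0.08, Nfyb of -0.15 and Nfyc of 0.30. Of the regulators on the list, Ciita alone passed 1.5-fold.

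The genes of H2-DM, which loads peptides, followed the same direction. H2-DMb1 was at 13.1 per 10000 in members and 4.496 in class II-low cells (log2 ratio 1.54, 1.49 to 1.60), and H2-DMa at 6.79 and 3.64 (log2 ratio 0.90). H2-DMb2 was at 0.368 and 0.231. Since H2-DMb1 and H2-DMb2 are near-identical, the split of their reads is uncertain. The H2-O alpha chain gene H2-Oa was at 0.236 in members and 0.0771 in class II-low cells (log2 ratio 1.498), while H2-Ob, the beta chain gene, was at 0.103 and 0.0877 (log2 ratio 0.22). Of the H2-O genes, H2-Oa alone passed 1.5-fold, on 130 and 73 UMIs.

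Proteases and genes that act on class II at the cell surface had smaller ratios. Ctss, cathepsin S, was at 66.0 per 10000 in members and 47.3 in class II-low cells (log2 ratio 0.48). Lgmn, the protease legumain, was at 18.3 and 18.5, and Ctsl, cathepsin L, had a log2 ratio of -0.32. Cd83, which stabilises class II at the surface, was at 3.97 and 2.64, and March1, the ligase that removes class II from it, at 0.946 and 0.648. The log2 ratio was 0.59 for Cd83 and 0.54 for March1, so these genes with opposite actions were both higher in members, Cd83 just past 1.5-fold and March1 just under it.

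Compared with the other presenting cells of the library, members had a similar level of H2-DMb1 to dendritic-type cells, with less H2-DMb2 and H2-O. H2-DMb1 was at 13.1 per 10000 in members, 12.3 in dendritic-type cells and 0.895 in B-type cells. H2-DMb2 was at 0.368 in members, 3.79 in dendritic-type cells and 6.96 in B-type cells. H2-Oa was at 2.26 in dendritic-type and 4.37 in B-type cells, and H2-Ob at 1.23 and 5.97. The members' 0.236 per 10000 of H2-Oa stood beside 0.120 in T-type cells. Ciita was at 1.12 in dendritic-type and 1.19 in B-type cells, against 0.752 in members. The proteases were higher in members than in dendritic-type cells, with Ctss at 9.76 and Lgmn at 0.900 in dendritic-type cells, against 66.0 and 18.3 in members. In PyMT-N, too, H2-DMb2 was lowest in the macrophages. It was at 0.260 in class II-high macrophages, 3.98 in dendritic-type and 3.45 in B-type cells there, and H2-DMb1 at 9.76, 8.86 and 1.12.

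**Figure D2:**
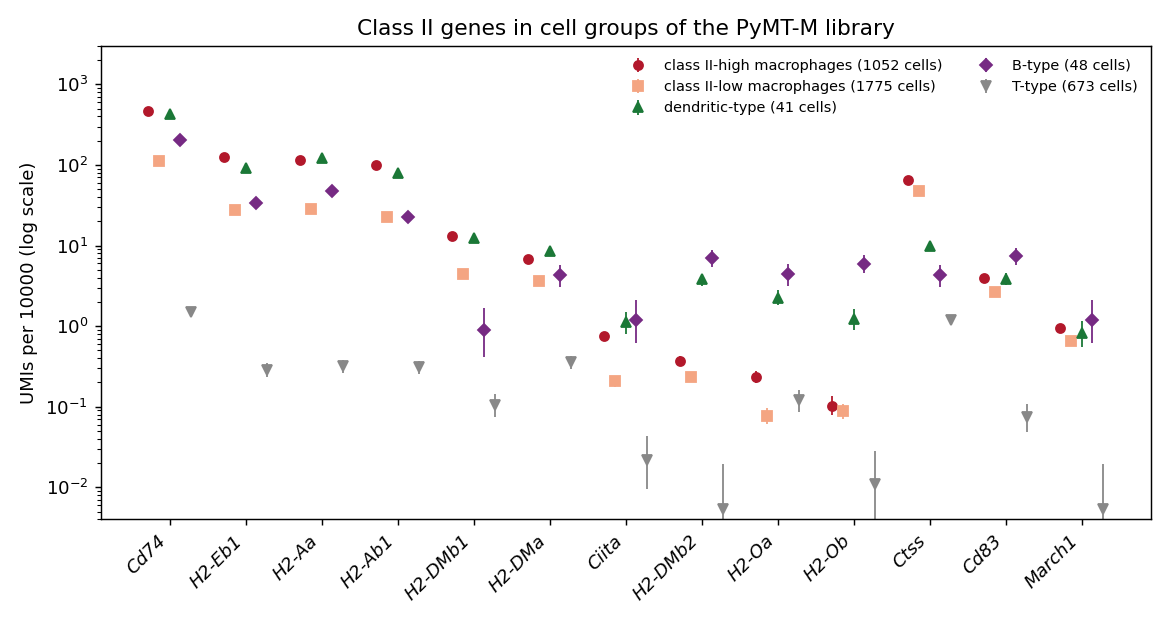
Level of 13 class II genes in UMIs per 10000 (log axis) in members, class II-low macrophages, dendritic-type, B-type and T-type cells of PyMT-M, with exact Poisson intervals as bars and a gene without a UMI not drawn. H2-DMb1 in members (13.1) sits with the dendritic-type cells (12.3), and H2-DMb2 in members (0.368) sits below them (3.79).

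Over 6 bins of the class II sum in PyMT-M, from under 100 (815 cells) to at least 1000 per 10000 (243 cells), H2-DMb1 and H2-DMa were higher in each bin than in the one before it. H2-DMb1 was at 1.76, 4.25, 7.44, 11.3, 13.8 and 16.7 per 10000 over these bins, and H2-DMa at 2.36, 3.65, 4.93, 6.19, 7.30 and 7.55. Ciita was at 0.0248, 0.247, 0.364, 0.700, 0.815 and 0.784, so its level did not differ much over the 3 bins that hold the members. Ctss was at 45.8, 45.9, 49.6, 59.1, 66.2 and 83.5. Median UMIs per cell were 3237 in the lowest bin and between 4411 and 5262 in the others, and the median C1q sum lay between 265 and 309 per 10000.

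The resident macrophage genes ran the other way over the same bins. Folr2, a folate receptor, was at 5.67, 3.44, 2.08, 0.635, 0.179 and 0.103 per 10000 from the lowest to the highest bin. Ccl8, a monocyte-attracting chemokine, was at 16.0, 8.22, 2.94, 0.947, 0.667 and 0.551, and Mrc1, the mannose receptor CD206, at 2.36, 2.08, 1.68, 1.06, 0.690 and 0.551. In the summed resident list the levels were 126, 78.5, 55.3, 33.2, 28.1 and 24.2. Each of these genes was lower in every bin than in the one before it. In PyMT-N, whose 2 highest bins held only 16 and 2 cells, Folr2 was at 1.81, 1.70, 1.12 and 0.335 over the first 4 bins and H2-DMb1 at 1.08, 3.99, 6.11 and 9.78.

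**Figure D3:**
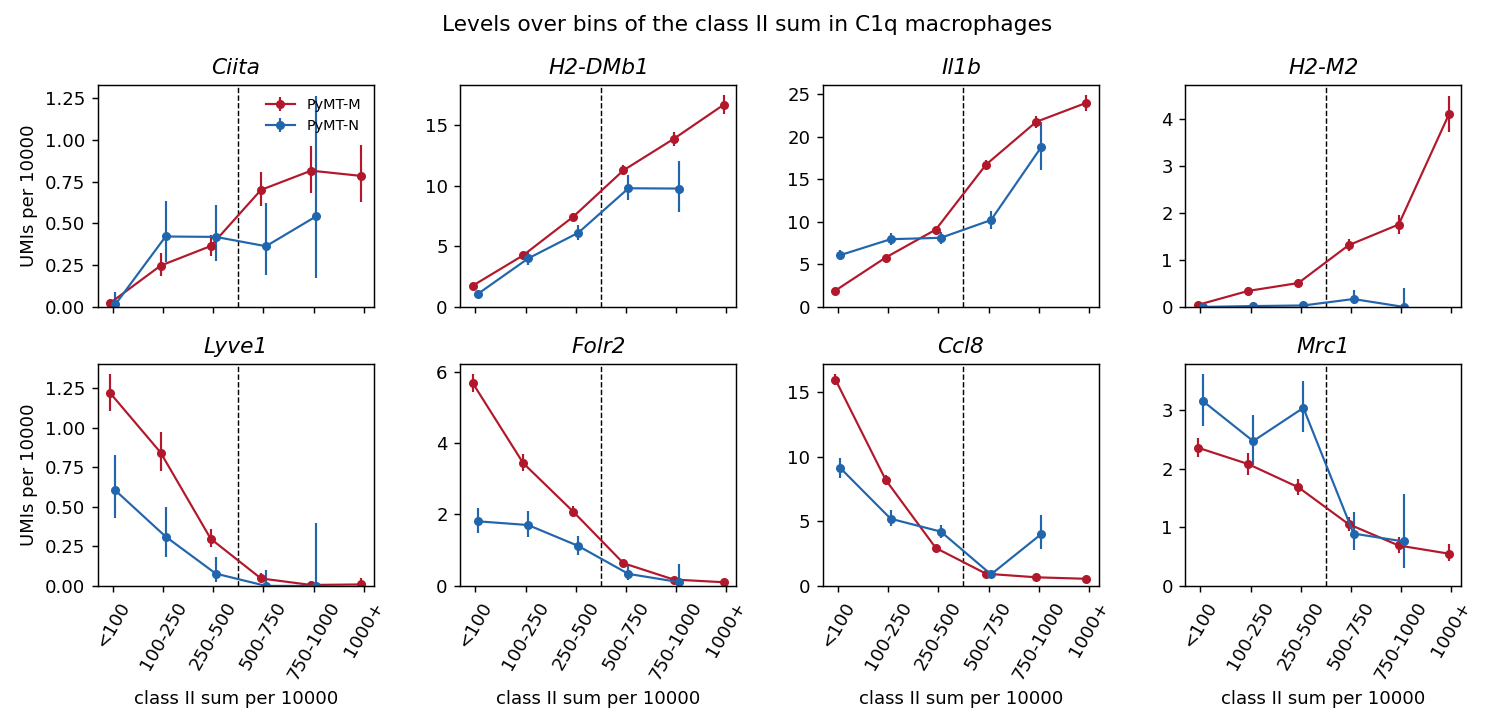
Levels of 8 genes (UMIs per 10000, linear axis) over 6 bins of the class II sum (horizontal axis, per 10000) in PyMT-M and PyMT-N. Bins of fewer than 10 cells are left out and the threshold is dashed. In PyMT-M H2-DMb1 runs from 1.76 to 16.7 and Folr2 from 5.67 to 0.103; the PyMT-N bin of 750 to 1000 rests on 16 cells.

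Of the 18 lists, the one with the median farthest from 0 was the resident macrophage list, genes of long-lived and perivascular tissue macrophages. In members 19 of its 20 genes with 100 or more UMIs were at least 1.5-fold lower and none was higher, beside 7.12% lower among all genes, and the median log2 ratio was -2.46. Lyve1, a hyaluronan receptor, was at 0.0272 per 10000 (15 UMIs) in members and 0.781 (739 UMIs) in class II-low cells (log2 ratio -4.41). Folr2 was at 0.392 and 3.78 (log2 ratio -3.24), Ccl8 at 0.784 and 9.21 (-3.54) and Fcna, a ficolin, at 0.0599 and 1.46 (-4.39). The scavenger receptor gene Cd163 was at 0.0309 and 0.262, and Gas6, a ligand of receptors for dying cells, at 0.325 and 2.24. Vsig4, a complement receptor, had no UMI in members and 68 in class II-low cells, at least 13.2-fold lower against a floor of 3 UMIs over the group. Selenop, a selenium carrier and the most abundant of these, was at 16.1 and 40.9. Timd4, a receptor for dying cells, had a log2 ratio of -0.27 on 15 and 33 UMIs, under the count needed to enter these 20 genes. Against class II-low cells of 100 to 500 per 10000 alone, a comparison chosen after the data were seen, the list's median was -1.85.

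Genes of lipid-handling and lysosome-rich macrophages were also lower, with 8 of 17 tested at least 1.5-fold lower, beside 7.12% among all genes, none higher and a median of -0.51. Trem2, a lipid receptor, was at 2.09 per 10000 in members and 6.84 in class II-low cells, and Ctsd, cathepsin D, at 6.91 and 33.2. Spp1, osteopontin, was at 0.209 and 1.40, whereas Apoe, a lipid carrier, was at 249 and 303 (log2 ratio -0.28). The lysosome list as a whole had 1 of 18 lower, near the 7.12% of all genes, and a median of -0.05, so the lower level of Ctsd was not shared by most lysosomal genes measured. Among complement genes outside the rule 2 were higher and 5 lower of 10, beside 3.42% and 7.12%, with C4b at 0.214 in members and 1.24 in class II-low cells.

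On the higher side, Il1b, the cytokine interleukin 1 beta, was at 19.6 per 10000 in members and 5.55 in class II-low cells, a log2 ratio of 1.82 (1.78 to 1.87). Its level was spread unevenly over members, with cell quartiles of 0, 10.6 and 31.2, a maximum of 152, and 37.4% of its UMIs in the 105 cells that had the most. The median class II-low cell had none. Over the bins Il1b was at 1.93, 5.80, 9.08, 16.7, 21.7 and 24.0. The inflammatory list as a whole, Il1b included, had 3 of 15 higher and 3 lower, beside 3.42% and 7.12% among all genes. Its median was 0.08, and Tnf was at 0.779 and 0.749. Cells rich in Ccl3 and Ccl4, which the rule leaves out, had 20.3 per 10000 of Il1b, cells with high interferon response 12.6 and cycling macrophages 11.7. Dendritic-type cells had 7.64 and T-type cells 0.117.

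H2-M2, a class I-like gene of the MHC on chromosome 17 at 37480851-37483552, was at 1.98 per 10000 in members and 0.289 in class II-low cells (log2 ratio 2.74, 2.59 to 2.97). It was at 2.18 in cells rich in Ccl3 and Ccl4, 1.79 in cells with high interferon response, 0.0273 in dendritic-type cells and at 0 in B-type and T-type cells. The 105 members with the most held 74.0% of its UMIs, against 22.6% for Cd74 and 54.1% for Ciita. Over the bins it was at 0.0440, 0.340, 0.507, 1.31, 1.75 and 4.09. Of the 23 class I presentation genes H2-M2 alone was at least 1.5-fold higher and none was lower, beside 3.42% and 7.12% among all genes. B2m, the light chain of class I, had a log2 ratio of -0.17, H2-K1 of 0.05 and H2-D1 of -0.19.

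Myeloid lectins and related receptors, many of them inhibitory, were higher in 9 of 18 genes tested and lower in 1, beside 3.42% and 7.12%, with a median of 0.60. Siglece, a sialic acid receptor, was at 2.31 per 10000 in members and 1.197 in class II-low cells, Lilra5 at 1.32 and 0.636, Klra2 at 2.77 and 1.64, and Klra17 at 2.58 and 1.03. Clec4n, which encodes dectin 2, was the exception at 1.997 and 3.88. Cd72, another lectin-like receptor, was at 12.7 and 6.72. Other genes with large ratios were Zmynd15 at 3.68 and 1.36, Sirpb1a at 2.08 and 0.795, and Napsa, the aspartic protease napsin A, at 0.746 and 0.277. Napsa was higher still in dendritic-type cells, at 6.57.

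Immediate early genes respond within minutes to stimulation and to tissue dissociation. In members 5 of 18 tested were at least 1.5-fold higher and 1 was lower, beside 3.42% and 7.12% among all genes. Their median was 0.29 (0.13 against class II-low cells of 100 to 500 per 10000). Fos, a subunit of AP-1, was at 46.9 per 10000 in members and 25.6 in class II-low cells, Dusp1, a phosphatase, at 21.9 and 11.8, and Zfp36, an RNA-binding protein, at 48.2 and 30.0. Ier3 went the other way at 1.64 and 3.86. The summed list was at 133, 150, 182, 207, 250 and 248 per 10000 over the bins of the class II sum.

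Genes that respond to interferon gamma, a main inducer of Ciita in macrophages, had 1 of 15 at least 1.5-fold higher and none lower. Among all genes 3.42% were higher and 7.12% lower. The higher gene of the list was Gbp3, at 0.488 against 0.289 per 10000, and the list's median was 0.15. Irf1, a transcription factor of that response, was at 0.601 and 0.418. Type I interferon genes outside the rule, whose strongest members the rule capped, had none of 29 higher and 3 lower, beside the same shares. Their median was -0.04. Bst2 was at 7.16 in members and 12.5 in class II-low cells and Ifi27l2a at 10.9 and 23.1. Costimulation and checkpoint genes were mixed at 4 higher and 4 lower of 17, beside the same 3.42% and 7.12%. Cd86, which costimulates T cells, was at 1.03 and 0.957, Cd40 at 0.414 and 0.363, and Cd80 at 0.0563 and 0.0792, so class II and these costimulators did not differ in parallel. Tnfsf13b, the B cell survival factor BAFF, was at 1.46 and 0.663, and Il10, an inhibitory cytokine, at 0.0163 (9 UMIs) and 0.0866 (82 UMIs).

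Of the remaining lists, chemokines and their receptors were 1.5-fold higher in 1 and lower in 8 of 19 genes, beside 3.42% and 7.12% among all genes. Ccl6 was at 8.22 per 10000 in members and 23.5 in class II-low cells and Ccl24, a chemokine for eosinophils, at 0.0762 and 1.48. Monocyte genes were higher in 2 and lower in 6 of 13, beside the same shares, with a median of -0.63 (-0.08 with every cell thinned to 2000 UMIs). Ccr2, the receptor for monocyte entry, was at 1.15 and 1.04. Glycolysis and hypoxia genes were lower in 4 of 21, beside 7.12% lower among all genes, with a median of -0.27. Heat shock genes (0 higher and 1 lower of 9), myeloid transcription factors (0 and 2 of 19) and phagocytic and Fc receptors (2 and 2 of 15) had medians between -0.07 and 0.06. The shares of all genes beside these counts were again 3.42% higher and 7.12% lower.

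**Figure D4:**
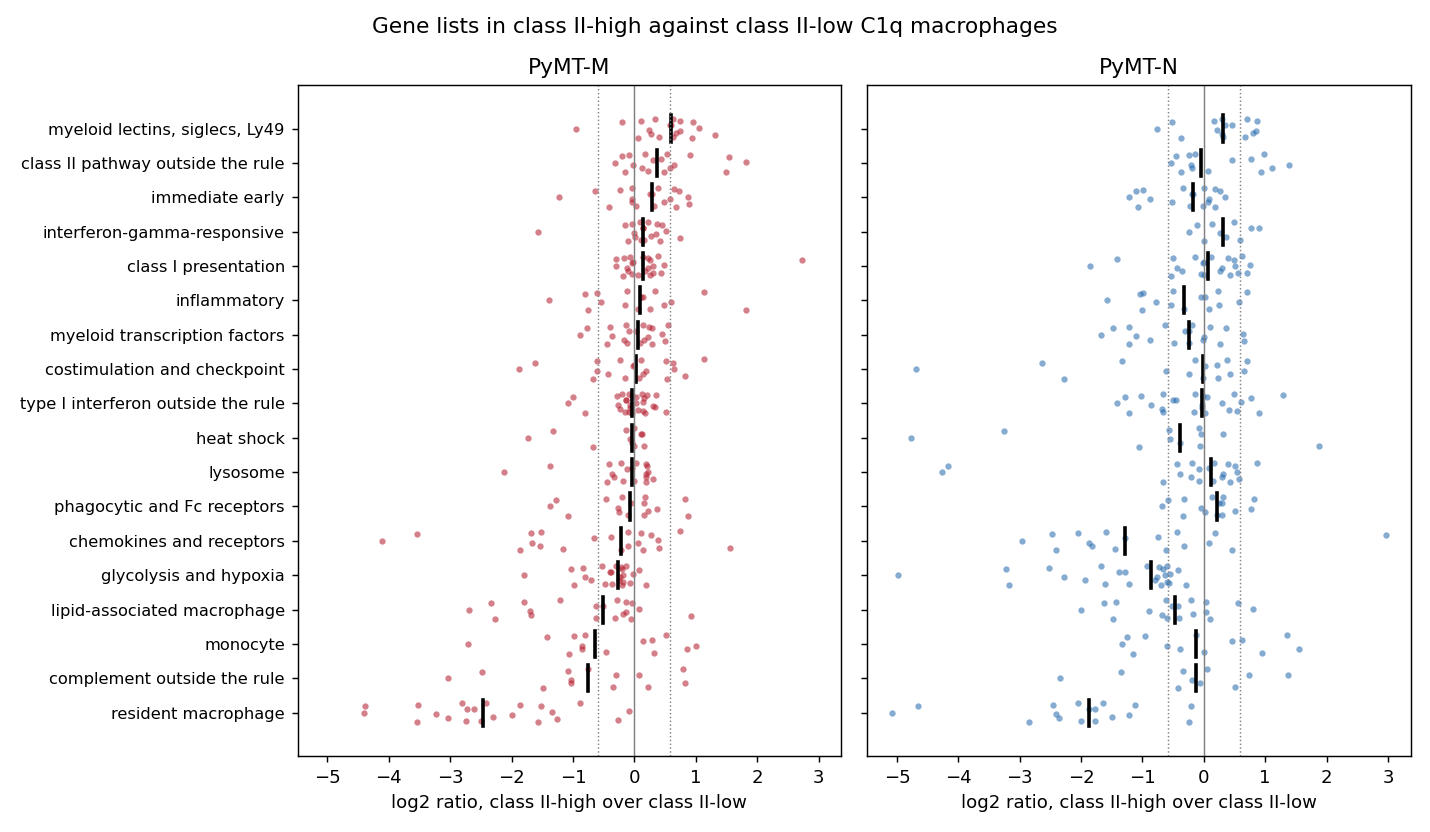
Log2 ratios of members to class II-low cells for the genes of 18 lists (points, genes with at least 20 UMIs) in PyMT-M and of the matching cells in PyMT-N, with medians as black bars and 1.5-fold as dotted lines. The resident macrophage medians lie at -2.46 and -1.87, and the class II pathway medians at 0.36 and -0.04.

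A single cell could decide a ratio. Among the genes named for members against class II-low cells, S100a9, a neutrophil calcium-binding protein, had the highest ratio. The gene had 298 UMIs in members, of which 1 cell held 232, and 5 UMIs in class II-low cells. Without the highest cell of each group its log2 ratio was 3.42 instead of 5.17. Of the genes with the lowest ratios, the secretory gene Pip had 1108 of its 1249 UMIs in class II-low cells in 1 cell (log2 ratio -4.25, and -1.84 without it). For Scgb2b27 1 class II-low cell held 1026 of 2242 UMIs and for Lcn2 506 of 1398. Pip, Csn3 and Scgb2b27 are known as secretory genes of epithelium, Lcn2 as a gene of epithelium and neutrophils, and Gzmb (log2 ratio -2.97) as a granzyme of cytotoxic lymphocytes. Ednrb, an endothelin receptor (-3.31), and Pmp22, a membrane protein (-2.92), were the other genes with the lowest ratios.

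**Figure D5:**
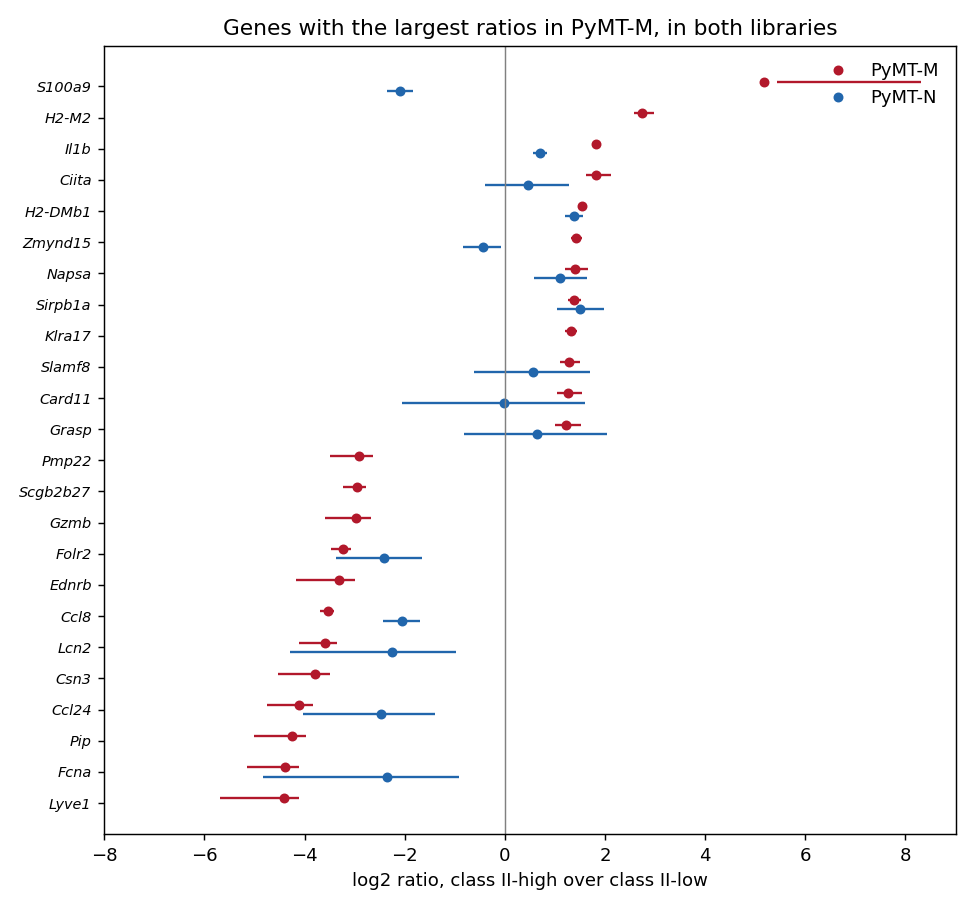
Log2 ratios (horizontal axis) of the 24 genes with the largest ratios in PyMT-M, with counting intervals, beside the same genes in PyMT-N, where points on fewer than 20 UMIs or on 0 UMIs in one group are omitted. The interval is of the ratio without the added 0.01, so S100a9 at 5.17 lies below its own interval of 5.44 to 8.31; in PyMT-N it lies at -2.08.

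The PyMT-N library was not used to set the rule, and the same rule there gave 74 class II-high and 380 class II-low cells. Of its 2630 genes with at least 100 UMIs over both groups, 139 (5.29%) were at least 1.5-fold higher and 343 (13%) at least 1.5-fold lower in class II-high cells. Of the 281 genes outside the rule that were higher in PyMT-M members, 68 had enough UMIs in PyMT-N and 26 of these (38.2%) were higher there by 1.5-fold, against 5.16% of the genes tested in both libraries. Of the 593 lower genes 164 could be read, and 92 (56.1%) were lower, against 12.9%. In the opposite direction were 5 and 2 genes. The genes readable in PyMT-N are the more abundant ones.

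By gene group, resident genes were lower in PyMT-N too, where 12 of 14 were at least 1.5-fold lower and none was higher, beside 13% lower among all genes (median -1.87). Folr2 was at 0.281 and 1.53 per 10000 there, Ccl8 at 1.49 and 6.21, Mrc1 at 0.844 and 2.91, and Lyve1 had 0 UMIs in class II-high cells and 60 in class II-low cells, at least 5.08-fold lower. Of the class II pathway 3 of 6 tested were higher, beside 5.29% higher among all genes. These were H2-DMb1 (log2 ratio 1.38, 1.21 to 1.56), H2-DMa (0.99) and Ctss (1.11). Ciita was at 0.389 and 0.280, with an interval of the log2 ratio from -0.39 to 1.28, so a difference was not detectable at this depth. Il1b was at 11.96 and 7.37 (0.70). Apoe was higher in class II-high cells of PyMT-N, at 145 against 83.4, unlike in PyMT-M.

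Several groups had other counts there. Immediate early genes were higher in 0 and lower in 4 of 17 in PyMT-N, beside 5.29% and 13% among all genes, with a median of -0.18. Klf2 and Klf6, transcription factors of that list, were at 1.13 against 2.43 and 1.17 against 2.73 per 10000. Beside 13% lower among all genes, glycolysis and hypoxia genes were lower in 15 of 18 (median -0.86), with Pgk1, a glycolytic enzyme, at 1.82 and 4.26, and chemokines in 10 of 15 (median -1.28). Neutrophil markers summed to 5.13 per 10000 in class II-high and 20.9 in class II-low cells of PyMT-N, and to 1.45 and 2.27 in PyMT-M. Their part in these ratios was not tested, and whether the ratios differ between the libraries was not tested either.

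Last, class II-high macrophages were compared between the lines, 1052 cells of PyMT-M with 74 of PyMT-N. Of 5660 genes with at least 100 UMIs over both, 1676 (29.6%) lay at least 1.5-fold higher for PyMT-M and 458 (8.09%) lower, and the median log2 ratio of all genes was 0.25. Scaled so that this median is 0, the counts were 1048 and 946, so the share of higher genes went from 78.5% to 52.6%, and list medians are given with and without this shift. The class II sum had a median of 775 per 10000 for PyMT-M and 629 for PyMT-N, the C1q sum 291 and 176, and the UMIs per cell 4839 and 6472. With 1 library per line, tumour line and library cannot be told apart.

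Immediate early genes were higher in PyMT-M in 13 of 17, with a median log2 ratio of 1.15 (0.89 after scaling), beside 29.6% higher among all genes. Fos was at 46.9 per 10000 in PyMT-M and 18.9 in PyMT-N, Klf2 at 5.28 and 1.13, and Zfp36 at 48.2 and 16.5. Beside the same 29.6%, interferon gamma-responsive genes were higher in 9 of 13, with a median of 0.89 (0.63 after scaling), Irf1 being at 0.601 and 0.303. Type I interferon genes were higher in 13 of 23 with a median of 0.72 (0.47 after scaling, and 0.62 unscaled with genes at 0 UMIs at the floor). None of the interferon genes tested was 1.5-fold lower.

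Costimulation genes were higher in 5 of 12, beside 29.6% higher among all genes. Their median was 1.02 (0.77 after scaling, and 0.76 unscaled with genes at 0 UMIs put at the floor of 3), led by Tnfsf13b at 1.46 and 0.195 per 10000, while Cd86 was at 1.03 and 0.887. In the class II pathway 7 of 14 genes were higher, again beside 29.6% (median 0.33, and 0.07 after scaling, near that of all genes), among them Ctss at 66.0 and 36.6, Cd83 at 3.97 and 1.41 and March1 at 0.946 and 0.325. H2-M2 was at 1.98 per 10000 in PyMT-M members and at 0.130, on 6 UMIs, in PyMT-N. The lysosome list was higher in 9 of 18 and lower in 1, beside 29.6% and 8.09% among all genes, with a median of 0.54 (0.29 after scaling).

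Lower in PyMT-M members than in PyMT-N were monocyte genes, 5 of 10 with 1 higher, beside 8.09% lower among all genes (median -1.11, and -1.37 after scaling). Ccr2 was at 1.15 per 10000 for PyMT-M and 3.68 for PyMT-N. Ly6c2, a marker of inflammatory monocytes, had a log2 ratio of -2.49. Glycolysis and hypoxia genes were lower in 8 of 16 and higher in 2 (median -0.48, and -0.74 after scaling), with Gapdh, a glycolytic enzyme, at 4.51 and 22.4. The largest single differences in this direction were those of Mmp12, a macrophage elastase (log2 ratio -3.93), and Spp1 (0.209 against 2.55 per 10000, log2 ratio -3.55). For Spp1 1 of the 74 PyMT-N cells held 55 of 118 UMIs, and the log2 ratio was -2.84 without the highest cell of each group. S100a8 and S100a9, which neutrophils express strongly, had log2 ratios of -3.07 and -2.36, with 47 of 55 and 106 of 130 PyMT-N UMIs in 1 cell. Resident macrophage genes were higher in 2 and lower in 2 of 14, beside 29.6% and 8.09% among all genes. Levels in the class II-high cells of both lines were near each other for Mrc1, at 0.846 and 0.844, and for Selenop, at 16.1 and 16.5. Folr2 was at 0.392 and 0.281, on 13 UMIs in PyMT-N of which 1 cell held 7, and Ccl8 at 0.784 and 1.49.

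Transcripts with some of the highest ratios were also read in other cells of PyMT-M. Wfdc18 had no UMI in class II-high cells of PyMT-N and was at least 10.96-fold higher in PyMT-M members, at 0.712 per 10000. Wfdc18 was at 0.398 in B-type and 0.0545 in dendritic-type cells of PyMT-M. It was at 11.1 in T-type cells, where 1 cell held 3382 of 4082 UMIs. Ccl5, a chemokine of T cells and macrophages, was at 9.07 in PyMT-M members and 0.411 in PyMT-N, where 18 of its 19 UMIs came from 1 cell. Ccl5 was at 103 in T-type cells of PyMT-M and at 13.2 in B-type cells, where 1 cell held 131 of 133 UMIs. Klra17 was at 2.58 in members and had 1 UMI (0.0216 per 10000) in class II-high cells of PyMT-N. T-type cells of PyMT-M had 0.00817. Fcrl5 had no UMI in class II-high cells of PyMT-N and was at least 8.56-fold higher in PyMT-M members. All 4 genes were also higher in class II-low macrophages of PyMT-M than in those of PyMT-N. Ccl5 was at 8.72 and 0.0439 per 10000 in these cells and Klra17 at 1.03 and 0.0275. Fcrl5 was at 0.282 and 0.0165 there, and Wfdc18 at 5.20 and 0.0275. These differences between the libraries were thus not particular to class II-high cells.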

How the data were processed

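The deposited files were the authors' matrices of UMI counts per gene and cell barcode, 1 per line; per the file headers, the writing software had version 3.1.0. Cell Ranger, Seurat and mm10 are named in the submitters' processing notes, and other versions are not given in the sources used here. Identifiers (31053) were summed to 31017 symbols. Counts of cells passing the filters were summed per group and divided by the group's total UMIs. Ratios had 0.01 per 10000 added and were read for genes with at least 100 UMIs over both groups (list medians, 20 UMIs). Scrublet in scanpy 1.11.5 scored doublets and its automatic threshold marked none, so no cell was removed. Python 3.11.15, numpy 2.4.6, scipy 1.17.1 and pandas 2.3.3 were used, and the ratio code was tested on simulated data. Up to 12 genes per direction were named by the largest ratio, with at least 0.5 UMIs per 10000 in the higher group and the near interval end beyond 1.5-fold. This naming passed over genes of the rule, predicted genes, ribosomal, haemoglobin and antigen receptor genes and those of the mitochondrial genome. From each list, the most abundant members and those with the largest ratios were eligible, and some further list members and genes of other cell types were chosen after their values were seen. Values of some list members are not reported here. The members and all lists were chosen with earlier results of these data known.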

Additional observations from a re-analysis of the deposited data

Results flagged for a closer look

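S100a9, a neutrophil gene, stood apart in opposite directions in the 2 libraries. Its log2 ratio of class II-high to class II-low macrophages was 5.17 in PyMT-M (0.541 against 0.00528 per 10000) and -2.08 in PyMT-N (2.81 against 11.96 per 10000). In PyMT-M 1 member held 232 of the 298 UMIs, and in PyMT-N 1 class II-high cell held 106 of 130. In PyMT-N S100a9 was also read at 19.8 per 10000 in macrophages rich in Ccl3 and Ccl4, 17.3 in T-type and 37.7 in B-type cells. There too few cells held it, with 99.1% of the T-type and 99.2% of the B-type UMIs in the tenth of cells that had the most. The difference between the libraries was not tested.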

How the results depend on the processing

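Each count, share, list median and named ratio was recomputed with 1 choice changed, and the cause of a shift was not tested. In PyMT-M, higher and lower genes numbered 57 and 258 at 2-fold, 456 and 1160 from 20 UMIs, and 143 and 337 with 0.1 per 10000 added. With the rule's genes left off the totals 457 were higher and 470 lower. Higher genes numbered 474 as means over cells and 469 at 750 or more against under 250 per 10000, and lower genes 342 after thinning. Against class II-low cells of 100 to 500 per 10000, a setting chosen after seeing the data, 156 were higher and 380 lower. Without cells holding RNA of other types, likewise chosen after seeing the data, 267 were higher and 464 lower. Other types here meant markers of T cells, NK cells, neutrophils, epithelium, fibroblasts and endothelium. Cells with B cell or dendritic cell markers were not left out on that ground. In PyMT-N they numbered 22 and 118 at 2-fold, 587 and 1702 from 20 UMIs, 68 and 127 after thinning, and 90 and 174 against 100 to 500. Between the lines they numbered 789 and 119 at 2-fold, 1048 and 946 scaled by the median, and 3197 and 887 from 20 UMIs, with 768 higher after thinning. The share of class II-high cells in PyMT-M was 44.8% at a threshold of 400, 30.7% at 600, 41.0% at up to 5% mitochondrial UMIs, 40.8% after thinning and 39.2% without cells holding RNA of other types (chosen after seeing the data). In PyMT-N it was 24.4% at 400 and 9.91% at 600. In PyMT-N Ly6c2 turned from a log2 ratio of 1.56 to -0.38 without cells of 400 to 600 and to -0.96 at 750 against 250, where few cells remain. The immediate early median there turned from -0.18 to 0.31 at 750 against 250. The resident macrophage median in PyMT-M ran from -1.85 against 100 to 500 to -3.41 at 750 against 250. The class II pathway median in PyMT-M ran from 0.22 with 0.1 added to 0.62 at 750 against 250, and the lysosome median turned from -0.05 to 0.05 with the rule's genes left off the totals. Of 72 recomputed counts, 45 stayed within 1.5 times of the value given above. Of 14 recomputed shares, 7 fell outside the counting interval of the value given. Recomputed ratios of named genes fell outside their counting interval in 113 of 288 cases in PyMT-M and 19 of 216 between the lines. In PyMT-N 37 of 288 did so without a change of sign, and 2 changed sign. No paired analysis was possible because each line had 1 library without a replicate number.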

Other observations

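Outside the rule, 7 genes with at least 100 UMIs in each comparison were 1.5-fold apart one way in PyMT-M and the other way in PyMT-N. Beside S100a9 these were Ifitm1, an interferon-induced membrane protein, with log2 ratios of class II-high to class II-low cells of 0.65 and -2.50, the kinase gene Pim1 (0.63 and -0.80), the receptor gene Cd300lf (0.63 and -0.76) and the adhesion gene Cadm1 (0.61 and -0.67). Pltp, which transfers phospholipids, had -0.85 and 0.80, and Ms4a4a, a macrophage membrane protein, -0.84 and 0.63. None of these differences was tested.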
